A study of Mus musculus with 36 samples.

Results

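The 8 genes Hddc3, Slc7a14, Lrp6, Cuedc1, Dbpht2, Zfp775, H2-D1 and Zf12, gave a low or absent signal in newborn B6 brain and a clear signal in newborn brain of A/J and of the C10 congenic line. They were chosen by their measured values, from all 18 newborn brains, as named genes whose probe was far lower in B6 than in both other lines, and the differences from B6 are therefore given as a description, with no test. They are 8 of 8702 genes that could be named on these arrays and 8 of the 4343 named genes with a detected probe. Each gene was measured by 1 named probe, and no other named probe of these genes was on the array to set beside it.

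RNA was measured on Illumina Sentrix Mouse-6 BeadChips, on which biotin-labelled cRNA binds to probes carried by beads, with 1 whole brain per array and 6 untreated brains of postnatal day 0.5 in each of 3 lines. A/J and B6 are inbred mouse strains. The C10 congenic line is written A.B6chr10 in the series text, a form of name used for an A/J background with a stretch of B6 chromosome 10. How far that stretch reaches, and the sex of the newborns, were not stated in the labels. None of the 8 genes lies on chromosome 10 in the reference gene table. They lie on 7 chromosomes, Lrp6 and Zfp775 on chromosome 6, Slc7a14 on 3, Hddc3 on 7, Cuedc1 on 11, Dbpht2 on 12, H2-D1 on 17 and Zf12 on X, so that by its name the congenic line carries A/J chromosomes at these genes.

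Of the 46116 probes on an array, 14415 to 15737 were detected in each brain, and 15864 were kept for the tests. Brains of the same line correlated at r from 0.947 to 0.993. One array, A/J brain 6, stood apart: its Xist signal was 7077 and no signal came from the Y chromosome genes Kdm5d and Eif2s3y, the reverse of every other brain. Its Hddc3 signal was the highest of the A/J brains, and its signals of the other 7 genes lay within the range of the other A/J brains. Without it, the B6 minus A/J difference of Hddc3 was -2.21 in place of -2.27 on the log2 scale. That of Zf12, which the reference gene table places on X, stayed at -1.93. Of the neuronal markers, 6 were measured, and 1 was called between lines: Rbfox3, with a mean signal of 4683 in A/J, 5991 in B6 and 4929 in the congenic line (A/J minus B6 -0.37, limma adjusted p = 0.0432). Dcx and Gap43 were not called. The Snap25, Pax6, Gfap, Aldh1l1, S100b, Olig2 and Mog probes were undetected in all 18 brains.

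The 8 genes do not form 1 pathway. Lrp6 is a co-receptor that, with a Frizzled receptor, passes a Wnt signal into the cell, a pathway that patterns the developing brain. H2-D1 encodes a heavy chain of the class I major histocompatibility complex, which presents peptides at the cell surface and is highly polymorphic among mouse strains. Slc7a14 belongs to the Slc7 family of amino acid transporters and is found in lysosomes, Hddc3 encodes MESH1, a hydrolase of the HD-domain family that acts on NADPH, and Cuedc1 encodes a protein with a CUE domain, a fold that binds ubiquitin. Zfp775 encodes a zinc finger protein. Dbpht2 is named for a DNA-binding protein with a His-Thr domain, and Zf12 is annotated as a transcribed pseudogene.

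The promoter windows of 4 of these genes are printed because genes on different chromosomes were low together in 1 line, to show whether their start regions share letters. Each window runs from 250 bases before to 50 after the annotated start, 5′ to 3′ on the gene's strand, from RefSeq on GRCm38.p6. That assembly is of the C57BL/6J strain, so the windows show a B6-type sequence, and the A/J sequence was not analysed here. Capitals mark matches, on either strand, to 5 motifs: the TATA box TATAAA, the CCAAT box CCAAT, the GC box GGGCGG, the E-box CACGTG and a κB site GGGATTCCC.
H2-D1 (chr17:35262844-35263143, plus strand): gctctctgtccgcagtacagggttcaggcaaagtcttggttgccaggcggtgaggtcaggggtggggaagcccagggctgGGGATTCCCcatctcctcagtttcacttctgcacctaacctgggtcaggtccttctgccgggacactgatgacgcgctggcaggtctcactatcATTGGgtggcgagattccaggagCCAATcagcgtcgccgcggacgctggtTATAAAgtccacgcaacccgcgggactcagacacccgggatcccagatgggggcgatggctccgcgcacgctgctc
Zfp775 (chr6:48601757-48602056, plus strand): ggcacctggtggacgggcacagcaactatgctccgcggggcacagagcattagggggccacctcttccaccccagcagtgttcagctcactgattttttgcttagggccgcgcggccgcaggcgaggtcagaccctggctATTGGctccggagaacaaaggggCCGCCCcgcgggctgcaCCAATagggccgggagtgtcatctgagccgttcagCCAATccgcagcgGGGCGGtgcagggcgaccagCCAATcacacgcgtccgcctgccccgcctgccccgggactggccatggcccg
Slc7a14 (chr3:31310270-31310569, minus strand): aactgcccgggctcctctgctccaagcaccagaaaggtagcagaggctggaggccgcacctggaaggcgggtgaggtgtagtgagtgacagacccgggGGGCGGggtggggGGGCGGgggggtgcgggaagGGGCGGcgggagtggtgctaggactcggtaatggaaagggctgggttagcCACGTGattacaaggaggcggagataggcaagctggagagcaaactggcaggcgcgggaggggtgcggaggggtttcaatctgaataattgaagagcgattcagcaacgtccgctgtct
Hddc3 (chr7:80342887-80343186, plus strand): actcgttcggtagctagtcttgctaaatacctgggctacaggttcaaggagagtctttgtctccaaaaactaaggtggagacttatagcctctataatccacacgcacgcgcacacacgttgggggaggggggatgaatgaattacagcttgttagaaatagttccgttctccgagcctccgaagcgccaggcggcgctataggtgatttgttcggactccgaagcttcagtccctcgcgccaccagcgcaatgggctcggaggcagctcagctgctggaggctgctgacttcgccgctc
Of the 8 genes, 6 had a window in the table, and no motif was shared by all of them. The H2-D1 window held 1 κB site, a letter string found in 0.353% of the 32851 windows of the table, and 1 TATA box, found in 13.6% of windows. It also held 2 CCAAT boxes, found in 37.4% of windows. Zfp775 had 4 CCAAT boxes and 2 GC boxes, the latter found in 35.7% of windows. Slc7a14 had 3 GC boxes and 1 E-box, which 7.15% of windows hold. Cuedc1 had 2 windows, 1 with a CCAAT box and a GC box and 1 without any motif. The Hddc3 window held none of the 5 motifs, and neither did that of Dbpht2. The number of CpG dinucleotides in the window was 19 for H2-D1, 24 for Zfp775, 18 for Slc7a14, 20 for Hddc3, 22 and 6 for the windows of Cuedc1 and 1 for Dbpht2, against a median of 7 over all windows. Counts of 18 to 24 stood at percentiles 71.9 to 81.6 of all windows, the count of 6 at 47.9 and that of 1 at 14.1.

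Lrp6, the Wnt co-receptor, was the surface receptor of the group. Its deposited signal, an intensity after background subtraction, ran from 439.8 over a median of 508 to 538 in A/J, and from 395 over 509 to 623 in the congenic line. The 6 B6 brains read from 42.2 over 65.0 to 114.8, and the probe was detected in 1 of them. All B6 brains lay below all 12 others, with a gap of 280.1 signal units. On the log2 scale of the signal shifted by 75, A/J exceeded B6 by 1.99 and the congenic line exceeded B6 by 1.99 (SE 0.115 each). Both sizes depend on the shift. On the shifted scale they were 3.96-fold and 3.97-fold, while the ratios of deposited means were 6.91 and 6.97, A/J first. Over the alternative settings, B6 minus A/J reached -2.87 and the congenic line exceeded B6 by up to 2.87.

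H2-D1, the class I heavy chain, was undetected in every B6 brain, where the signal ran from -3.7 over 7.9 to 21.7. It ran from 213 over 253 to 346 in A/J and from 203 over 266 to 313 in the congenic line, in which it was detected in all brains. No value of B6 came near those of the other lines. Since B6 gave no signal well above background, the difference is a bound, set against the lowest detected signal of each B6 array after normalization. On the shifted scale, not that of the deposited signal, the A/J value was at least 1.96-fold and the congenic value at least 1.95-fold that of B6. The measured log2 differences of 2.00 and 1.99 (SE 0.114 each) depend on the shift: floored at 16 instead, B6 minus A/J was -3.93 and the congenic line exceeded B6 by 3.92.

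For Slc7a14, the lysosomal transporter gene, the A/J brains held a narrow range of 732 over 756 to 835, and the congenic brains one of 641 over 826 to 877. The B6 brains ran from 32.7 over 126.8 to 237, and the probe was detected in 4 of 6 brains. The groups did not overlap, the gap being 403 units. A/J exceeded B6 by 2.10 and the congenic line exceeded it by 2.14 on the log2 scale (SE 0.167 each), the largest error among the 8 genes. These sizes too depend on the shift: the ratios of deposited means were 5.77 for A/J and 6.00 for the congenic line. B6 minus A/J reached -2.77 over the alternative settings, and the congenic line exceeded B6 by up to 2.82.

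Hddc3, the NADPH hydrolase gene, was the member that stayed detected in all 6 B6 brains. There it read from 185 over 272 to 339.6, against 1216 over 1588 to 1935 in A/J and 1427 over 1764 to 2011 in the congenic line. The B6 brains lay 876 units below the lowest of the others. The ratio of deposited means was 5.91 for A/J over B6 and 6.51 for the congenic line over B6. The log2 differences of the shifted signal were 2.27 and 2.40 (SE 0.122 each).

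Cuedc1, the CUE-domain gene, was detected in 2 B6 brains and in all others. Its signal in B6 ran from 58.9 over 91.1 to 143.8, in A/J from 463 over 616 to 656.5, and in the congenic line from 370.5 over 489 to 579. The congenic range reached lower than that of A/J, and both stayed above B6. The log2 differences from B6 were 1.96 for A/J and 1.68 for the congenic line (SE 0.129 each). They depend on the shift, with ratios of deposited means of 6.00 and 4.87, A/J first. Among the alternative settings, B6 minus A/J reached -2.64 and the congenic line exceeded B6 by up to 2.33.

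Zfp775, a zinc finger gene, and Dbpht2, a gene of a putative DNA-binding protein, were also low without being absent. Zfp775 read from 87.6 over 98.9 to 166.5 in B6, where 4 brains were detected, from 439.7 over 586 to 666.5 in A/J and from 532.5 over 548 to 575 in the congenic line. Dbpht2 read from 55 over 95.4 to 136.7 in B6, where 2 brains were detected, from 486 over 534 to 565 in A/J and from 449.5 over 519 to 656 in the congenic line. Neither gene had a B6 brain above the lowest brain of another line. The log2 differences were 1.80 and 1.75 for Zfp775 (SE 0.108 each) and 1.86 and 1.85 for Dbpht2 (SE 0.112 each), A/J first. Here too the sizes depend on the shift. Ratios of deposited means were 5.10 and 4.85 for Zfp775 and 5.64 and 5.62 for Dbpht2, A/J first. With the alternative settings, B6 minus A/J reached -2.38 for Zfp775 and -2.56 for Dbpht2. The congenic line exceeded B6 by up to 2.32 and 2.54.

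Zf12, the transcribed pseudogene, had the smallest gap. It was undetected in all B6 brains, at -28.2 over -22.2 to 10.7, and read from 117.1 over 147.7 to 156.8 in A/J and from 124.3 over 154 to 176 in the congenic line. The lowest of the other brains lay 106.4 units above the highest B6 brain. As a bound on the shifted scale, the A/J value was at least 1.27-fold and the congenic value at least 1.31-fold that of B6. The measured log2 differences were 1.93 and 1.97 (SE 0.119 each). With a floor of 16 in place of the shift, the congenic line exceeded B6 by 3.21 and B6 minus A/J was -3.15.

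**Figure D1:**
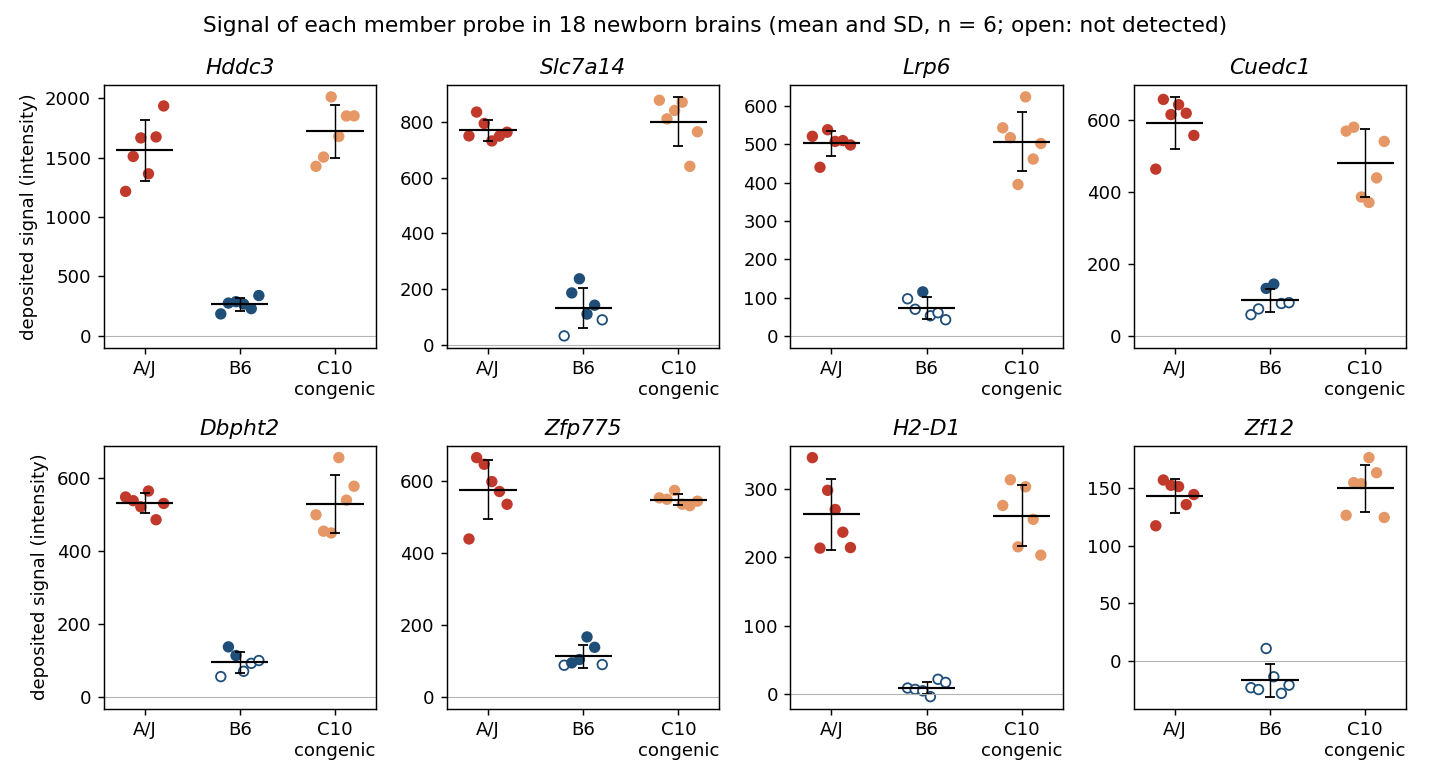
Deposited signal (intensity, linear scale) of the probe of each gene in A/J, B6 and C10 congenic newborn brain. Points are single brains (6 per line), filled where the probe was detected at p under 0.01 and open where it was not; bars give the mean and SD. In all 8 panels the 6 B6 brains lie below the 12 others, and for H2-D1 and Zf12 all B6 points are open.

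Separation of this kind was how the genes were found, and it was not common on the array. All B6 brains lay below all other brains for 1.53% of kept probes, and 8.0% of kept probes were called lower in B6 than in A/J (limma, adjusted p under 0.05). The congenic line was called higher than B6 for 5.99%, and both calls together held for 3.59% of kept probes, 570 probes. The median of the smaller of both log2 differences over those 570 was 0.52, and 83 of them, 23 of these in named genes, reached 1 in both. The named gene with the largest smaller difference was Hbb-b2, a beta globin gene, at 5.64, which is not one of the 8. The places of H2-D1 and Zf12 in that order are not measured, since their B6 probes were not well above background. Cuedc1 stood just inside with 1.68, and the next outside were Mvb12b, a gene of the ESCRT-I sorting complex, at 1.40, Rpa3, of replication protein A, at 1.38, and the ribonuclease gene Rnase4 at 1.36. Across the array, 30 probes were detected in all A/J and congenic brains and in no B6 brain, H2-D1 and Zf12 among them, while 97 probes were detected in all B6 brains and in no other. No probe was detected in all A/J and B6 brains and in no congenic brain.

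The congenic line and A/J, both high for these genes, were then compared with each other. The choice by the smaller of both differences from B6 favours genes at similar levels in these lines, so that a count or median over the 8 is a description. None of the 8 genes was called different (limma, Benjamini-Hochberg adjusted over all kept probes), against 0.933% of kept probes called in either direction. That share rests on 148 probes, a count that ran from 17 to 314 with 1 brain left out and was 1 without filtering of dim probes. By this test 1 gene, Cuedc1, had an unadjusted p under 0.05, against 15.2% of kept probes. Its congenic signal was lower by 0.27 on the log2 scale (difference -0.27, 95% interval -0.54 to -0.01, limma adjusted p = 0.312), with a mean of 480.4 ± 93.7 against 592 ± 71.8 in A/J (SD, n = 6 each).

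The other genes gave congenic minus A/J differences on both sides of 0, with 4 of the 8 above and 4 below. Hddc3 was at 0.14 (95% interval -0.12 to 0.39, limma adjusted p = 0.629) and Slc7a14 at 0.05 (-0.30 to 0.39, limma adjusted p = 0.915). Lrp6 differed by 0.003 (-0.24 to 0.24, limma adjusted p = 0.992). For H2-D1 the difference was -0.01 (-0.24 to 0.23, limma adjusted p = 0.983), for Dbpht2 -0.01 (-0.24 to 0.22, limma adjusted p = 0.963), for Zfp775 -0.05 (-0.28 to 0.17, limma adjusted p = 0.849) and for Zf12 0.04 (-0.20 to 0.29, limma adjusted p = 0.886). The median size of the difference over the 8 genes was 0.045, against 0.121 over all kept probes. A test that does not pass the threshold does not show equal levels, and the intervals give what these 6 brains per line allow, at most 0.54 in size for any of the 8.

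**Figure D2:**
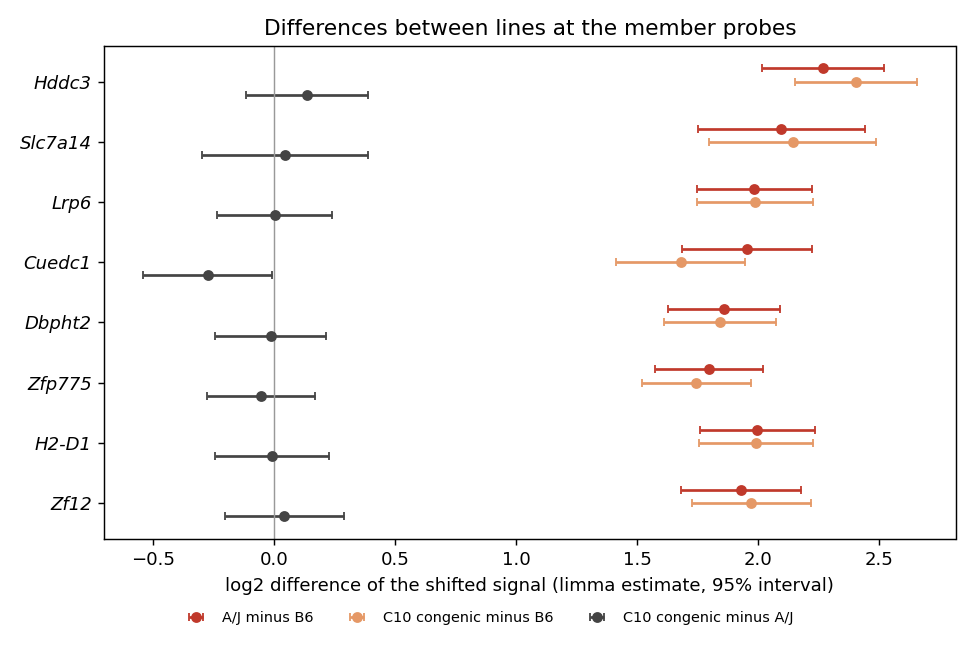
Log2 difference of the shifted signal for each gene, with its 95% interval from limma, for A/J minus B6, C10 congenic minus B6 and C10 congenic minus A/J (6 brains per line). The differences from B6 lie between 1.68 and 2.40, and the congenic minus A/J differences between -0.27 and 0.14. The genes were chosen by their differences from B6, so the intervals of those differences are a description. For H2-D1 and Zf12, undetected in all B6 brains, these sizes depend on the shift and the text gives bounds.

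Within lines the genes were correlated in both directions. After each line's mean was removed, Pearson correlations over the 18 brains among the 28 pairs of these genes ran from -0.499, for Hddc3 with H2-D1, to 0.616, for Slc7a14 with Dbpht2, with a median of 0.160. The pair Cuedc1 and Zfp775 reached 0.586. H2-D1 and Zf12 were undetected in all B6 brains, Lrp6 was detected in 1, and Cuedc1 and Dbpht2 in 2 each. Part of the correlations of these genes can be noise near background. Slc7a14 had a log2 SD of 0.54 in B6 against 0.06 in A/J, so B6 weighs heavily in its correlations. All these correlations are descriptions: both genes of a pair were read on the same arrays, and no other pairs of probes were set beside them. Across all 18 brains, line means included, the 3 named genes most like each member had r from 0.956 to 0.982, and other members took 15 of those 24 places. Hbb-b2 took 6 of them, with within-line correlations such as 0.020 with Hddc3 and -0.363 with H2-D1. Among the genes most like Cuedc1 were Zfp775 at 0.975 and Mprip, a myosin phosphatase partner, at 0.971, and Mprip also followed it within lines, at 0.732.

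The genes lying beside the members did not enter the choice and were tested with all kept probes. For the 7 genes other than Zf12, whose place in the gene table could not be checked, the 3 nearest measured named genes on each side gave 42 different neighbours. Of these, 12 were called lower in B6 than in A/J and 0 higher (limma, adjusted p under 0.05; 28.6% lower), against 7.87% of all 4343 named genes lower and 7.62% higher. The congenic line was called higher than B6 at 9 neighbours (21.4%, against 4.35% of named genes) and lower at 4. In all, 9 neighbours were lower in B6 than in both other lines (21.4%, against 3.18% of named genes). Neighbours of 1 gene share a chromosome segment and are not independent of each other, and the shares were set side by side with no test between them. Up to 208 genes of the reference table lay between a member and a measured neighbour.

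The lower neighbours lay beside 4 of the 7 genes. Beside H2-D1, Lst1, a leukocyte transcript of the class III region, fell from 974 ± 116 in A/J to 390.1 ± 145 in B6 and was 928 ± 160 in the congenic line (SD, n = 6 each). The log2 differences from B6 were 1.22 (limma adjusted p = 2.19e-06) and 1.15 (limma adjusted p = 6.05e-06). H2-Q5, another class I gene whose probe may share sequence with its relatives, was lower in B6 by 0.47 against A/J and 0.43 against the congenic line. It was detected in 3 of 6 B6 brains. Vars2, a mitochondrial valyl-tRNA synthetase gene, was lower in B6 by 0.49 and 0.49. The fourth of these neighbours, 1110038B12Rik, was lower in B6 than in A/J by 0.61 (limma adjusted p = 0.000609) but not called between the congenic line and B6. Its mean signal was 1646 in A/J, 1053 in B6 and 1107 in the congenic line, and it was the 1 neighbour whose congenic level was called different from A/J (-0.54, limma adjusted p = 0.0304), a call lost in 10 of 25 alternatives. The Vars2 calls were lost under several alternatives (limma adjusted p from 0.015 to 0.118 and from 0.0206 to 0.139). H2-Q2, on the other side of H2-D1 from Lst1, ran the other way, with the congenic line at -0.39 from B6 (limma adjusted p = 0.0141).

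Among the measured neighbours of Slc7a14 was Gnb4, which encodes a beta subunit of heterotrimeric G proteins. Its mean signal was 1041 ± 230.3 in B6, 2446 ± 329.7 in A/J and 2197 ± 243 in the congenic line (SD, n = 6 each). A/J exceeded B6 by 1.19 and the congenic line exceeded it by 1.05. Gene 4632415L05Rik was also lower in B6, by 0.85 and 0.76. Between it and Slc7a14 lay 109 genes of the reference table, and 15 lay between Gnb4 and Slc7a14. The 4 measured neighbours between these and Slc7a14, namely Tbl1xr1, Rpl22l1, Zmat3 and Mfn1, were not called.

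On the segment of Hddc3, the genes measured next to it on either side were both lower in B6. Rccd1, a gene of the RCC1 domain family, differed by 0.75 from A/J and 0.44 from the congenic line, and Man2a2, a Golgi mannosidase of N-glycan processing, by 0.78 and 0.64. Rccd1 was detected in 2 of 6 B6 brains. The sizes at dim neighbours depend on the settings: B6 minus A/J reached -1.24 for Rccd1 and -1.21 for Man2a2 over the alternatives. Furin, a proprotein convertase, and Iqgap1, a scaffold of the actin cytoskeleton, passed the test against A/J alone, at 0.33 and 0.41, with Furin undetected in all 6 B6 brains. The Furin call was lost in 11 of 25 alternatives (limma adjusted p from 0.0245 to 0.132). Beside Zfp775, Zfp467 was lower in B6 by 0.41 and 0.64 and Fam221a by 0.39 and 0.56. Between Zfp775 and these genes lay 10 and 41 genes of the reference table. On 1 side of Lrp6, 180 to 208 genes of the reference table lay between it and its measured neighbours, and on the other side 4 to 23. No neighbour of Lrp6, Cuedc1 or Dbpht2 was called lower in B6. In all, 3 of their neighbours were called higher in B6 than in the congenic line: Fam234b beside Lrp6 (congenic minus B6 -0.46), and Dynll2 (-0.41) and Msi2 (-0.59) beside Cuedc1. The Dynll2 call was lost in 7 of 24 alternatives (limma adjusted p from 0.0139 to 0.0889).

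**Figure D3:**
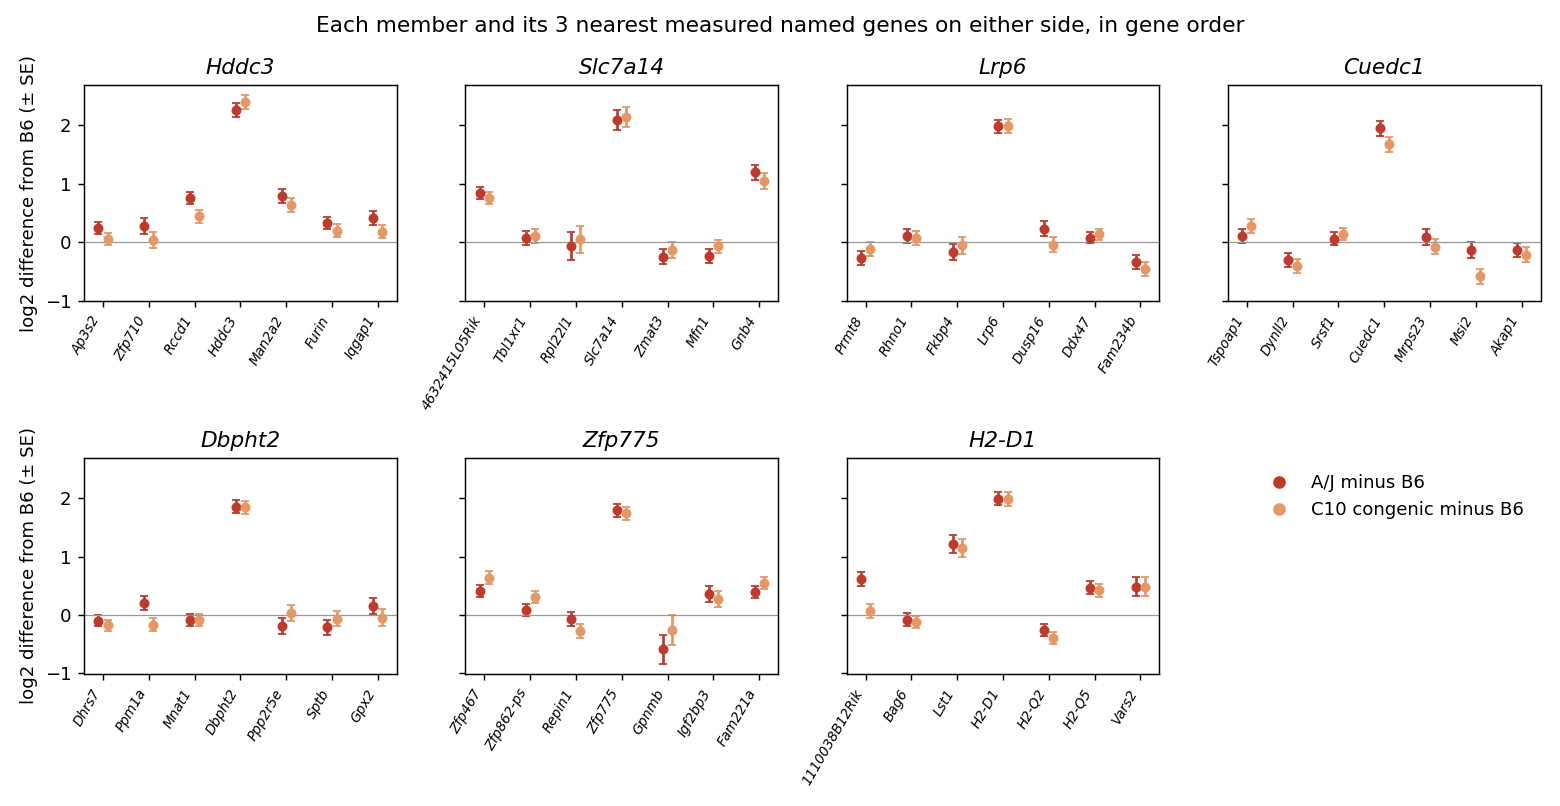
Log2 difference from B6 (± SE) of 7 genes and of their 3 nearest measured named genes on either side, in gene order, for A/J minus B6 and C10 congenic minus B6. Each of the 7 genes stands above its neighbours, which follows from their choice by large differences from B6. On this shifted scale the neighbours that rise furthest are Lst1 beside H2-D1 (1.22 and 1.15) and Gnb4 beside Slc7a14 (1.19 and 1.05).

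Other genes of the pathways and families of the members were compared in the same fit, in which 16.1% of kept probes were called in either direction between B6 and A/J and 12.1% between the congenic line and B6. Of 9 other measured Wnt genes, 1 was lower in B6 than in A/J and 0 were higher. It was Sfrp1, a secreted antagonist that binds Wnt proteins, at 923 ± 91.5 in A/J, 436 ± 64.0 in B6 and 845 ± 106 in the congenic line (SD, n = 6 each). A/J exceeded B6 by 0.97 (limma adjusted p = 1.64e-07) and the congenic line exceeded B6 by 0.85 (limma adjusted p = 1.57e-06). Btrc, the F-box protein that recognises phosphorylated beta-catenin, was lower in the congenic line than in B6 (-0.47, limma adjusted p = 0.0485), a call lost in 17 of 25 alternatives (adjusted p from 0.00821 to 0.14). Fzd2, a Frizzled receptor, and Tcf7l2, a nuclear effector, were not called, at -0.02 and 0.04 for A/J minus B6. The median B6 minus A/J difference of the Wnt genes was 0.015, against -0.024 over all kept probes.

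Among 5 other measured genes of class I antigen presentation, 0 were called between B6 and A/J, and H2-Q2 alone was called between the congenic line and B6. H2-Q5, called lower in B6 as a neighbour of H2-D1, was not on this list. H2-K1, the other classical class I heavy chain measured, was near background, detected in 0 A/J, 3 B6 and 3 congenic brains, and was not called. The immunoproteasome gene Psmb10 was not called either, at 1049.5 ± 111 in A/J, 989.9 ± 185 in B6 and 838 ± 174 in the congenic line (SD, n = 6 each). The median over these genes was 0.071 for B6 minus A/J.

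The remaining families showed little movement. Slc7a4 was the 1 other measured gene of the Slc7 list and was not called. None of 5 other genes of NADP(H) metabolism and HD-domain hydrolases was called in either comparison with B6. Of 4 other CUE-domain genes, Ascc2, whose protein binds ubiquitin chains in a DNA alkylation repair complex, was lower in B6, by 0.31 against A/J (limma adjusted p = 0.0222) and 0.35 against the congenic line (limma adjusted p = 0.0112). Both Ascc2 calls were lost without filtering of dim probes (adjusted p = 0.0876 and 0.0514, the highest over the alternatives, against lowest values of 0.0114 and 0.00522). No gene of these lists was called for the congenic line against A/J.

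**Figure D4:**
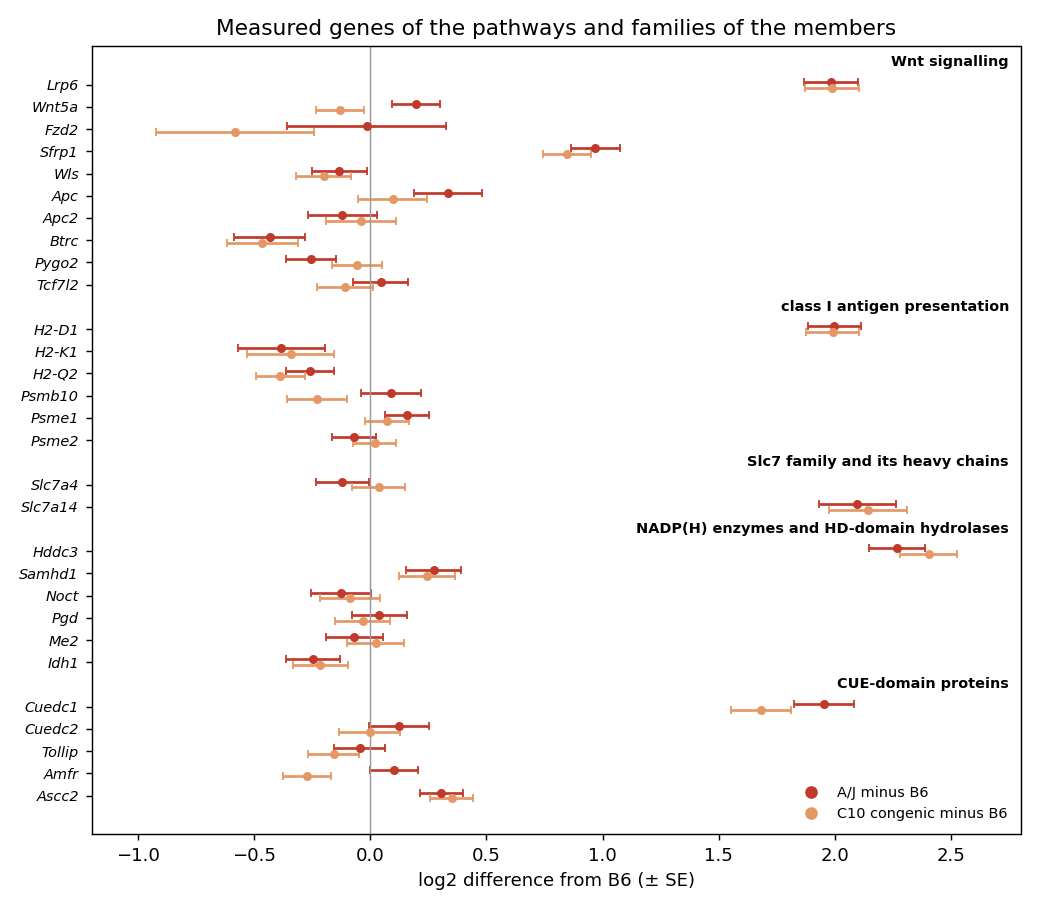
Log2 difference from B6 (± SE) of the members and of the other measured genes of their pathways and families, for A/J minus B6 and C10 congenic minus B6. In each list the member lies far to the right, at 1.68 or more, which follows from the choice of the members. Sfrp1, at 0.97 and 0.85, is the other gene furthest from 0.

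Red blood cell genes set B6 apart from the other lines, with Hba-a1 and Hbb-b2 lower in B6 and Hbb-b1 higher. The mean signal of Hba-a1 was 31117 in A/J, 12450 in B6 and 28790 in the congenic line. The summed signal of the 3 measured genes ranged from 9353 to 23232 in B6, from 33787 to 53024 in A/J and from 24068 to 50783 in the congenic line. Hbb-b2 had a mean of 118.6 in B6 against 10796 in A/J, and Hbb-b1 one of 1618 against 148.5, the other way. These globin genes are near-identical in sequence, so that their separate levels are uncertain. The microglial receptor gene Csf1r was lower in B6 than in the congenic line (congenic minus B6 0.56, limma adjusted p = 0.0112). It was not called between B6 and A/J (limma adjusted p = 0.0668), and of 5 listed microglial markers it was the 1 with a named probe. The collagen gene Col1a2, a marker of meninges, went the other way: it was detected in all 6 B6 brains, at a mean of 254, and in no other brain, at means of 6.02 in A/J and 5.43 in the congenic line. The other measured meningeal markers, Col1a1 and Dcn, were not called. The part of blood or of other cells in the differences of the 8 genes was not tested. In whole brain, fewer cells of a type and less RNA per cell cannot be told apart. Each gene rests on 1 probe whose sequence is not in the sources used here, and whether the probes match the transcripts of A/J and B6 equally was not tested.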

How the data were processed

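The authors' per-array files hold a signal, an intensity on a linear scale that falls to -59 after background subtraction, with a detection score, a fraction between 0 and 1; both are as deposited, from BeadStudio per the submitters' processing notes, with no version, slide or normalization given in the sources used here. The authors' series table was identical to these files. From the deposited intensity, 75 was added (the lowest signal plus 16), log2 taken and arrays quantile normalized. The detection p is 1 minus the deposited fraction, and probes with p under 0.01 in at least 6 of 18 arrays were kept (15864 of 45477, after 639 control or reverse-complement probes were left out). H2-D1 and Zf12 passed this filter through A/J and the congenic line alone. The number in a probe ID was read as an NCBI Gene ID where it had 1 or 2 leading zeros; 82.6% of 11897 such numbers are Gene IDs in the RefSeq table of GRCm38.p6. This naming is an inference; it named 9832 probes, and clone names a further 982. Lines were compared with limma 3.58.1 in R 4.3.3 (all 18 brains, no block, two-sided, Benjamini-Hochberg over kept probes, threshold 0.05). The script was tested on simulated data. The replicates are separate brains; the number of arrays limits precision.

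Members, gene lists and rules were chosen with earlier results of these data known. Genes are named if they are members, called members of the lists with up to 2 uncalled ones each, the 3 most alike per member, the 3 nearest measured named genes per side, and the 3 next outside by the smaller difference; Hbb-b2, above them in that order, and further uncalled genes and markers are named for their values. One gene that the rule names is not reported here. The brightest kept probe stands for a gene. The tests planned on other probes of the members could not be run, since there were none. Hippocampal arrays were not used here. Alternatives cover scale, normalization, filter, trend, block, lines in the fit and each brain left out.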

Additional observations from a re-analysis of the deposited data

Results flagged for a closer look

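Of 24 groups tested (8 genes in 3 lines, 6 brains each), 1 held a brain far from the rest. The Zf12 signal of B6 brain 3 was 10.7, the highest of its line, and its gap to the next brain was 0.630 of the line's range, just past Dixon's critical value for 6 samples. Chance gives such a brain in about 1 of 20 groups. The probe was undetected in that brain, and all A/J and congenic brains lay above it.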

How the results depend on the processing

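The differences of the 8 genes from B6 chose them, so their calls in the refits say nothing about stability. Their congenic minus A/J difference stayed uncalled in all 200 refits, and changed sign in 12 that each left out 1 brain, with ranges of -0.0703 to 0.0254 for Dbpht2, -0.0502 to 0.0597 for H2-D1 and -0.0522 to 0.0626 for Lrp6. The count of probes called for the congenic line against A/J moved: 148 became 88 with signal floored at 16, 1 without filtering of dim probes, 275 with only the compared lines in the fit, and 17 to 314 with 1 brain left out. It was lowest without A/J brain 1 or congenic brain 6 (17 each), and 287 without A/J brain 6. Counts against B6 stayed within 1.5 times, at 1996 to 2747 for A/J (2557) and 1460 to 2120 for the congenic line (1921). Neighbours called lower in B6 numbered 9 to 12 against A/J and 8 to 10 against the congenic line. Replicate numbers did not pair the brains (same-number correlations -0.091 to 0.333, 8 of 18 over 0.1); with the replicate block that count was 223. Among neighbour and list genes, the Vars2 calls were lost in 10 and 15 of 25 refits, Btrc in 17, Furin in 11, Dynll2 in 7 of 24 and 1110038B12Rik (congenic against A/J) in 10. The Ascc2 calls were lost in 3 refits against A/J and 1 against the congenic line, and those of Iqgap1 and H2-Q2 in 1 each. Dim probes near background limit what B6 levels can show. Alternatives for neighbours and lists were chosen after seeing the data.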
